A study of Mus musculus with 18 samples.

Results

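Tubule cells on day 7 of primary culture were compared with tubules at isolation (day 0). The members are 6 of the 18 libraries of a time course, chosen by their titles: 3 of day 7 and 3 of day 0, named replicates A, B and C on each day. The day 7 group is labelled as proximal tubules kept for 7 days on tissue culture plastic without passage, with fresh medium at intervals. The day 0 group consists of the tubules as isolated. Both groups are wild type, from female C57BL/6 mice 6 weeks old, and received no treatment; the tubules were released with collagenase and enriched on Percoll. RNA with a polyA tail was sequenced. Replicates are labelled biological, with nothing on whether each had its own animals or dish. The p-values therefore measure a spread between libraries that may be technical. This spread was estimated over all 18 libraries of the time course (17 without day 7 replicate C), not from the 6 alone.

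The proximal tubule reabsorbs most of the glucose, phosphate, amino acids and protein that the glomerulus filters, and its cells sit on a laminin and collagen IV basement membrane. After injury in the kidney, surviving tubule cells are known to flatten, divide, lose transporters and later rebuild junctions, and some stay in a state marked by keratins, adhesion molecules and secreted proteins. In culture the same cells spread on plastic, close a sheet held by cadherins, desmosomes and claudins, and lay down a matrix of their own.

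Levels are TMM-scaled CPM, that is, counts relative to library size after scaling by the trimmed mean of M values, given for replicates A, B and C in that order. The log2 fold change of day 7 over day 0 (log2FC) is given with its standard error, and values with day 7 replicates A and B alone stand in brackets. Where a gene is said to have risen or fallen by a value, the value is its log2FC. A gene was called higher or lower at a Benjamini-Hochberg adjusted p under 0.05 in edgeR's quasi-likelihood test, and all adjusted p-values below come from this test over 18754 genes. The 6 libraries held between 23799559 and 37579097 estimated counts. Mitochondrially encoded transcripts took 0.711 to 0.939% of the counts on day 7 and 3.93 to 5.73% on day 0. In bulk RNA, fewer cells of a type and less RNA per cell cannot be told apart.

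Day 7 replicate C stood apart from A and B. The distance of a library was taken as the mean over genes of its absolute difference in log2 CPM. From day 4, C was 0.471 away, A 0.71 and B 0.703. From day 14, C was 0.674 away, A 0.392 and B 0.379. C lay nearer to the day 4 mean than to the mean of A and B in 11388 tested genes, or 60.7%. It was at least 2-fold above the mean of A and B in 2071 genes and at least 2-fold below it in 1756. The labels give no batch or date for it.

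The label proximal tubule was checked against markers of the cell types a kidney digest can hold. Of 18 proximal tubule markers 18 were lower on day 7 (18 with A and B), where 32.1% of all tested genes were (32.5%). Their summed level was 84.0 to 134 CPM on day 7 and 45459 to 53601 CPM on day 0. Of 12 general tubule epithelium markers 10 were higher (10 with A and B), where 37.6% of all tested genes were (37.1%), with sums of 6862 to 7815 CPM on day 7 and 2300.0 to 2571 CPM on day 0. Markers of the thick limb, distal tubule and collecting duct, 13 of 17 lower and 1 higher (13 and 1), summed to 48.8 to 463 CPM on day 7, the lowest in C, and to 6672 to 8798 CPM on day 0. RNA of distal segments was thus part of the day 0 libraries. Pvalb, of that list, had 0 counts on day 7. On day 7 the distal sum was above the proximal tubule sum in A (370 against 109 CPM) and B (463 against 84.0 CPM). In C it was below (48.8 against 134 CPM). For day 7 the name proximal tubule therefore rests on the label and not on these markers. Endothelial markers, 11 of 12 lower (11), summed to 40.6 to 78.3 CPM on day 7 and 291 to 368 CPM on day 0. Macrophage and leukocyte markers, 1 of 13 higher and 7 lower (2 and 8), summed to 48.2 to 65.8 CPM on day 7 and 35.4 to 81.3 CPM on day 0. Of 14 tested fibroblast and smooth muscle markers 5 were higher and 4 lower (3 and 7). Their list summed to 153, 148 and 308 CPM on day 7, highest in C, and to 139 to 169 CPM on day 0. Lum and Meg3 of this list had 0 counts on day 7, but they failed the filter on low counts and are not among the 14. Podocyte and parietal markers, 3 of 10 higher and 6 lower (3 and 7), summed to 485 to 744 CPM on day 7 and 486 to 613 CPM on day 0. With library sizes alone the podocyte and parietal counts were 3 higher and 2 lower. The part of these cell types in the results was not tested.

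Thbs1 encodes thrombospondin 1, a secreted matrix protein that binds integrins and activates latent TGF-beta; its gene, ENSMUSG00000040152, lies at chr2:118111876-118127133 on the plus strand of GRCm38. Its level was 3265, 3336 and 3206 CPM on day 7, against 69.6, 72.1 and 72.7 CPM on day 0. The 3 libraries of each day lay close together and far from the other day, replicate C included. The log2 fold change was 5.52 ± 0.19 (A and B 5.53 ± 0.19), with an adjusted p of 2.17e-12 (9.14e-13), and the deposited TPM averaged 898 on day 7 and 12.1 on day 0. Day 7 was also above day 4, where the mean was 1697 ± 72.1 CPM (SD, n = 3), by a log2 fold change of 0.95 ± 0.16 (A and B 0.96 ± 0.17), with an adjusted p of 0.000388 (0.000194).

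Wnt7a, a Wnt ligand that epithelia secrete (ENSMUSG00000030093, chr6:91363981-91411363, minus strand), had 359, 338 and 233 CPM on day 7 against 0.0946, 0 and 0 CPM on day 0. The day 0 value rests on 2 counts in 1 library, so the ratio of day 7 to day 0 is given with its exact 95% interval, which covers counting error only: 1.08e+04 (2.98e+03 to 8.88e+04), and 1.2e+04 with A and B alone. Day 7 against day 4 gave a log2 fold change of 0.37 with an adjusted p of 0.139, and with A and B alone 0.54 with 0.0122, so that call depends on replicate C. Sox11, a transcription factor of developing tissues (ENSMUSG00000063632, chr12:27334264-27342574, minus strand), had 33.6, 42.9 and 33.1 CPM on day 7 and 0.189, 0.036 and 0.257 CPM on day 0. Its log2 fold change was 7.91 ± 0.35 (A and B 7.98 ± 0.33) with an adjusted p of 1.85e-11, and it was higher on day 7 than on day 4 by 1.9 ± 0.22 (A and B 1.96 ± 0.21) on the log2 scale, with an adjusted p of 3.1e-05 (1.08e-06).

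Lcn2 encodes lipocalin 2, a secreted protein used as a marker of kidney injury (ENSMUSG00000026822, chr2:32384633-32388252, minus strand). It was at 1017, 765 and 561 CPM on day 7 and 1.28, 0.864 and 3.64 CPM on day 0, with no overlap and the lowest day 7 value in C. Its log2 fold change was 8.72 ± 0.42 (A and B 8.93 ± 0.36), adjusted p = 4.22e-11. Its level also differed from that of the neighbouring days: the log2 fold change of day 7 over day 4 was 2.42 ± 0.3 (A and B 2.61 ± 0.26), with an adjusted p of 4.43e-05 (5.49e-07), and that of day 14 over day 7 was 1.49 ± 0.29 (A and B 1.3 ± 0.27), with an adjusted p of 0.00448 (0.00371). Per length it was among the most abundant of the listed transcripts on day 7, with a mean of 1860 TPM against 2.797 TPM on day 0.

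**Figure D1:**
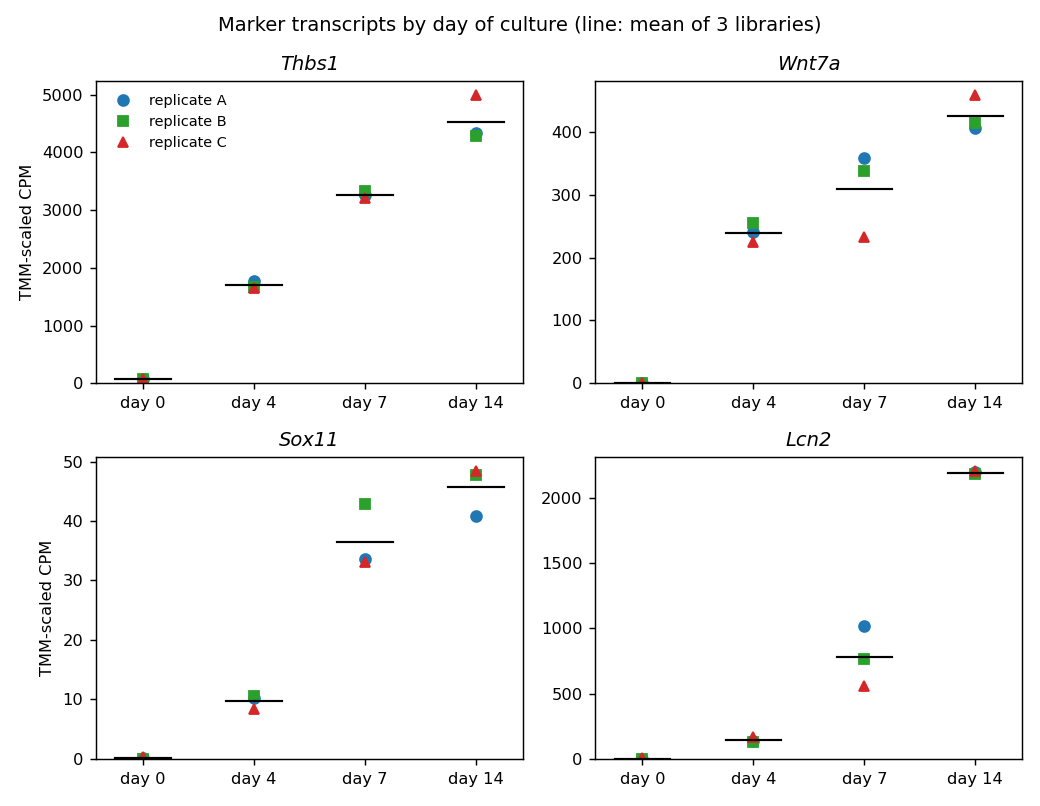
Level of Thbs1, Wnt7a, Sox11 and Lcn2 in TMM-scaled CPM (y axis, linear) by day of culture (x axis), with one symbol for each replicate and a line at the mean of 3 libraries. All 4 genes were near the bottom of the axis on day 0 and high on day 7, and replicate C of day 7 was the lowest of its day in Wnt7a (233 CPM) and Lcn2 (561 CPM) but level with A and B in Thbs1.

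Promoter windows of some of the genes that rose are shown because they differ in the letters of 2 motifs known from injured and spreading epithelium, AP-1 (TGANTCA) and TEAD (GGAATG), searched on both strands. Each runs from 250 bases before to 50 after a start site of RefSeq on GRCm38.p6, 5′ to 3′ on the gene's strand, with motif matches in capitals. Cldn4 (chr5:134946885-134947184, minus strand) holds 2 AP-1 matches, Plaur (chr7:24462233-24462532, plus strand) holds 1, and Krt20 (chr11:99438104-99438403, minus strand) holds 3 TEAD matches, 2 of which overlap by 1 base. The windows of Wnt7a (chr6:91411304-91411603, minus strand) and Lcn2 (chr2:32387690-32387989, minus strand) hold neither.
Cldn4: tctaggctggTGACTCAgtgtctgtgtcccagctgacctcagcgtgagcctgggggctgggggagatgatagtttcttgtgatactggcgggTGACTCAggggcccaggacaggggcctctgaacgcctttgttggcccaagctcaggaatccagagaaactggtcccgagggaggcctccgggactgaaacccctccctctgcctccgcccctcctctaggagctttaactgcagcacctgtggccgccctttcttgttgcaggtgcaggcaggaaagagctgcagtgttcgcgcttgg
Plaur: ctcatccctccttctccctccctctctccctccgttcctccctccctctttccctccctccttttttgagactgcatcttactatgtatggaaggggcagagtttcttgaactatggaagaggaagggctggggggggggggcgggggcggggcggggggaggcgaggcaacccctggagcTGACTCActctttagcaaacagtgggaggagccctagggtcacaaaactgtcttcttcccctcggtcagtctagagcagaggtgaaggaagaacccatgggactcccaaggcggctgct
Krt20: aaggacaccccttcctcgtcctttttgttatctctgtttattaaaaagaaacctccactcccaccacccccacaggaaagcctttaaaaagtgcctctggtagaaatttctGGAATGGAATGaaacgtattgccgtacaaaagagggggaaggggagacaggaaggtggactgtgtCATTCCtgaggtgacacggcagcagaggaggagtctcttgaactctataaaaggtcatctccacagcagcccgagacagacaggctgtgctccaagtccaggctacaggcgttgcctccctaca
Wnt7a: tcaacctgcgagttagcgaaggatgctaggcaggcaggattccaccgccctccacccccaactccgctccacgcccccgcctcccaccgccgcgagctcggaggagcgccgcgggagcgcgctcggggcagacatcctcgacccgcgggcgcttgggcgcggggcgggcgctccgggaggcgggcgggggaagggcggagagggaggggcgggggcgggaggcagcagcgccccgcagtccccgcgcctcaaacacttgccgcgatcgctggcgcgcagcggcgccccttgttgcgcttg
Lcn2: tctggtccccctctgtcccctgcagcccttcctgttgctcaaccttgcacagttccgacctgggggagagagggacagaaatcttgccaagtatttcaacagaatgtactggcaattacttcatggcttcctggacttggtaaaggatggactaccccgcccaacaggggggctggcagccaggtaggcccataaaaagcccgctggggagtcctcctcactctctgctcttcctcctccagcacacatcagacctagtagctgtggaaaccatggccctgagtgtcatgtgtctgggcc
Of 32851 such windows of 27025 genes, 7.81% hold an AP-1 match and 14.7% a TEAD match. Among the genes named by rule, windows of 62 of 85 were counted. The counted windows did not come from every chromosome. The other named genes were left out of the count, and some of them may have a window. The shares of the counted genes therefore depend on which windows were kept. The background shares were not limited in the same way, so the 2 sets of shares are not strictly comparable. AP-1 matches stood in 7 of 55 windows (12.7%) of counted genes higher on day 7 and in 1 of 25 (4%) of those lower. TEAD matches stood in 9 of 55 (16.4%) and 2 of 25 (8%). A match describes letters and is not a bound site.

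Of the 18754 genes tested, 7060 (37.6%) were higher on day 7 and 6028 (32.1%) were lower, with a median log2 fold change of 0.16 over all genes. With A and B alone, 6965 (37.1%) were higher and 6088 (32.5%) lower, with a median of 0.13. Calls in both settings numbered 6523 higher and 5744 lower, and no gene was called in opposite directions. Scaling bears on this balance: with library sizes alone the log2 fold changes of single genes moved up by a median of 0.50. The calls were then 10022 higher and 4223 lower, or 70.4% higher against 53.9%. With limma on log2(TPM + 1) they moved up by a median of 0.66 over the genes tested in both fits. The calls were 10337 higher and 3147 lower, or 76.7% higher. The changes below are relative to the TMM scale. The lists described here hold 553 genes, of which 516 passed the filter on low counts. A gene that passed through the day in which it was high had to differ, so list counts are descriptions. They stand beside 37.6% higher and 32.1% lower of all genes, or 37.1% and 32.5% with A and B alone. These shares belong to the TMM scale, and those with library sizes alone and on the TPM scale, given above, lean further to higher genes.

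**Figure D2:**
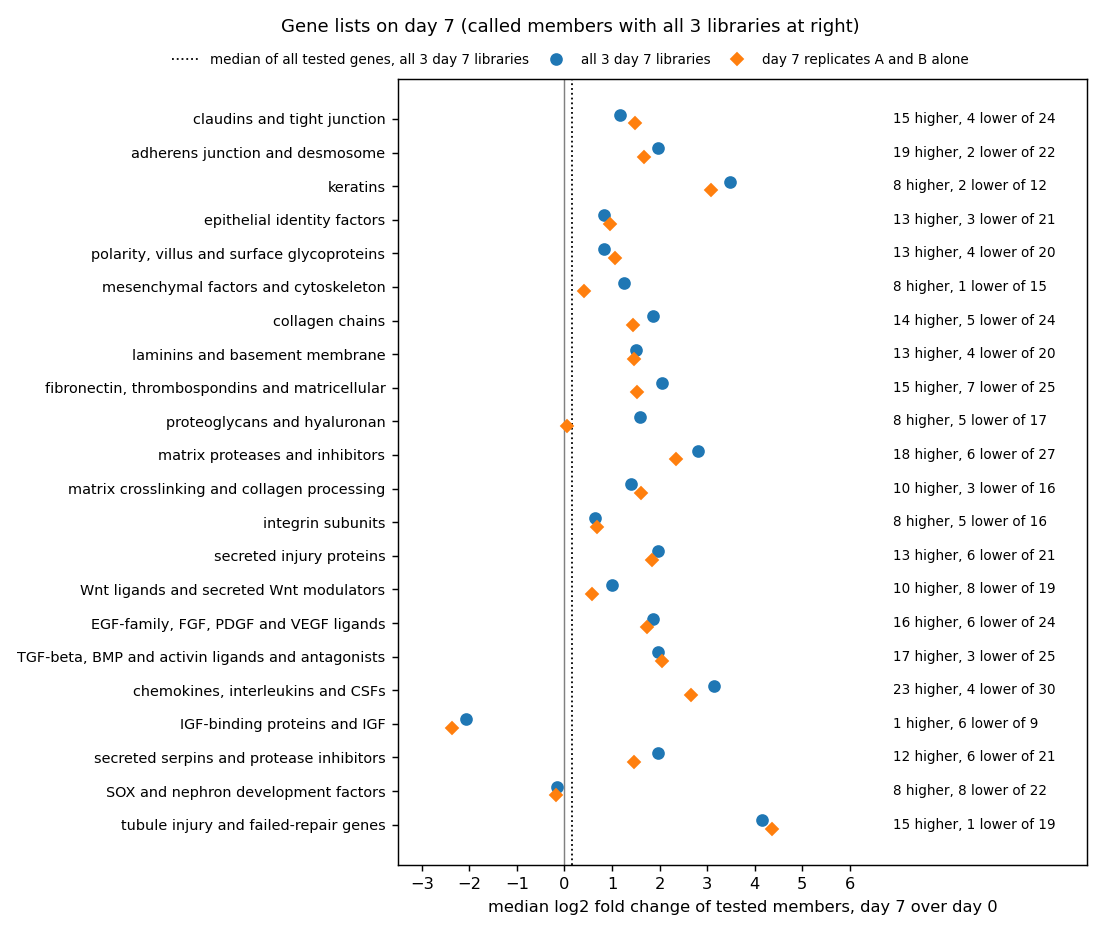
Median log2 fold change of the tested members of each epithelial, matrix, secreted, factor and injury list (the marker lists that check cell types, and replication and mitosis, are not plotted), day 7 over day 0 (x axis), for all 3 day 7 libraries (circles) and for replicates A and B alone (diamonds), with the counts called higher and lower at the right. The dotted line is the median of all tested genes, 0.16. Among the plotted lists, injury genes have the highest median (4.16) and IGF-binding proteins the lowest (-2.08), and the mesenchymal and proteoglycan lists move left when C is taken out.

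Of 24 tested claudin and tight junction genes, 15 were higher and 4 lower (15 and 5), beside 37.6% and 32.1% of all genes. Their median was 1.16 (1.49). Cldn4, a barrier-forming claudin of distal nephron and other tight epithelia, had 414, 325 and 429.8 CPM on day 7 and 23.2, 9.94 and 9.799 CPM on day 0, log2FC 4.77 ± 0.32 (A and B 4.69 ± 0.32). Cldn7 had 462, 444 and 374 CPM on day 7 and 35.7, 31.4 and 42.02 CPM on day 0, log2FC 3.55 ± 0.16 (A and B 3.64 ± 0.15). Cldn3 and Cldn6, a claudin of embryonic epithelia, rose by 4.85 and 5.83 (5.05 and 6.11), and Cldn1 by 2.79 (2.73). Cldn2, the cation and water pore of the proximal tubule, had 26.3, 14.4 and 32.7 CPM on day 7 and 1013, 925 and 839 CPM on day 0, log2FC -5.24 ± 0.38 (A and B -5.5 ± 0.41). Cldn10 had 3.605, 0.496 and 0.7499 CPM on day 7 and 224, 165 and 236 CPM on day 0, log2FC -6.95 ± 0.64 (A and B -6.61 ± 0.6). Neither pair of ranges overlaps. Cldn8, a claudin of the collecting duct, was not called: 240.1, 246 and 21.03 CPM on day 7 and 239, 181 and 259 CPM on day 0, with A and B inside the day 0 range and C far below it. Of the strand and scaffold proteins, Ocln rose by 1.33 ± 0.18 (A and B 1.59 ± 0.09) and Tjp1, which encodes ZO-1, by 1.66 ± 0.1 (A and B 1.61 ± 0.1).

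Adherens junction and desmosome genes rose almost throughout, with 19 of 22 higher and 2 lower (20 and 2), beside 37.6% and 32.1% of all genes. The median was 1.96 (1.68). Cdh1, which encodes E-cadherin, had 990.1, 966 and 764 CPM on day 7 and 306, 268 and 314 CPM on day 0, with no overlap, log2FC 1.62 ± 0.12 (A and B 1.72 ± 0.1), adjusted p = 4.13e-09. Its catenin partner Ctnna1 rose by 1.39 ± 0.11 (A and B 1.55 ± 0.07) and Ctnnb1 by 0.38 ± 0.07 (A and B 0.38 ± 0.07). The desmosomal cadherin Dsg2 had 116, 119.9 and 56.1 CPM on day 7 and 16.9, 13.9 and 18.2 CPM on day 0, log2FC 2.58 ± 0.22 (A and B 2.86 ± 0.11). Desmoplakin, Dsp, had 91.1, 89.04 and 36.4 CPM on day 7 and 10.4, 9.68 and 12.2 CPM on day 0, log2FC 2.75 ± 0.28 (A and B 3.07 ± 0.17). For both, replicate C was the lowest on day 7 yet still above every day 0 library. N-cadherin, Cdh2, the cadherin of mesenchyme and also of mouse proximal tubule, had 67.05, 66.4 and 238 CPM on day 7 and 16.7, 17.2 and 13.8 CPM on day 0, highest in C, log2FC 2.96 ± 0.38 (A and B 2.06 ± 0.16). Kidney cadherin, Cdh16, fell by this scaling, log2FC -0.79 ± 0.19 (A and B -0.53 ± 0.09), but the call was lost with library sizes alone (-0.30) and on the TPM scale (-0.14).

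The keratins that pair as filaments of simple epithelium were among the 10 most abundant listed transcripts per length on day 7. Of 12 tested keratins 8 were higher and 2 lower (6 and 2), beside 37.6% and 32.1% of all genes. The median was 3.48 (3.08), or 2.89 (1.77) with keratins at 0 counts on day 0 set to their bound. Krt18 had 1440, 1232 and 1587 CPM on day 7 and 19.7, 18.8 and 28.4 CPM on day 0, log2FC 5.99 ± 0.2 (A and B 5.91 ± 0.19). Its partner Krt8 had 1455, 1158 and 2170 CPM on day 7 and 115, 111 and 115 CPM on day 0, log2FC 3.81 ± 0.18 (A and B 3.53 ± 0.1). In TPM they averaged 1870 and 1454 on day 7, against 17.8 and 62.5 on day 0. Krt19, a keratin of ducts and injured tubules, had 433, 351 and 267 CPM on day 7 and 1.09, 0.864 and 1.64 CPM on day 0, log2FC 8.22 ± 0.22 (A and B 8.39 ± 0.16). Krt7 rose by 3.15 ± 0.16 (A and B 3.1 ± 0.16) and was lower on day 7 than on day 4, at -0.96 ± 0.15 (A and B -1.01 ± 0.17). Krt20, whose promoter is printed above, had 75.2, 44.3 and 173 CPM on day 7 and 0.142, 0.07199 and 0.103 CPM on day 0, log2FC 9.83 ± 0.68 (A and B 9.13 ± 0.52). Krt10, of stratified epidermis, was low and fell, log2FC -1.74 ± 0.14 (A and B -1.71 ± 0.16).

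Several general epithelial factors rose and the proximal tubule factor Hnf4a fell. Of 21 tested genes 13 were higher and 3 lower, median 0.84 (13 and 4, 0.96), beside 37.6% and 32.1% of all genes. Elf3, an ETS factor of epithelia, had 367, 274 and 77.5 CPM on day 7 and 23.5, 23.2 and 24.3 CPM on day 0, log2FC 3.34 ± 0.37 (A and B 3.76 ± 0.13). Klf5 had 122, 140.4 and 69.2 CPM on day 7 and 2.18, 1.66 and 3.39 CPM on day 0, log2FC 5.55 ± 0.26 (A and B 5.81 ± 0.17). Grhl2, which drives junction genes in ducts, rose by 2.34 ± 0.19 (A and B 2.58 ± 0.12), and the protease inhibitor Spint2 by 1.16 ± 0.14 (A and B 1.33 ± 0.1). All 4 were lowest in C on day 7 without reaching the day 0 range. Hnf4a, which holds the proximal tubule programme, had 2.28, 1.66 and 11.4 CPM on day 7 and 649, 627 and 568 CPM on day 0, log2FC -6.93 ± 0.62 (A and B -8.27 ± 0.46), adjusted p = 5.5e-08. The channel-activating protease Prss8 fell by 3.01 (-2.69).

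Among polarity, villus and surface glycoprotein genes 13 of 20 were higher and 4 lower (14 and 4), beside 37.6% and 32.1% of all genes. Their median was 0.84 (1.07). Cd24a had 1231, 1227 and 522 CPM on day 7 and 131, 101 and 145 CPM on day 0, log2FC 2.98 ± 0.25 (A and B 3.29 ± 0.14). The mucin Muc1 had 507, 529 and 109 CPM on day 7 and 24.2, 19.1 and 28.7 CPM on day 0, log2FC 3.99 ± 0.45 (A and B 4.44 ± 0.24). In both C was well below A and B but above day 0. Epcam and Cd9 rose by 1.53 and 1.98 (1.63 and 1.98), and the hyaluronan receptor Cd44 by 6.62 ± 0.53 (A and B 5.63 ± 0.18), highest in C. The bundling protein villin of the brush border, Vil1, had 1.65, 1.31 and 12.04 CPM on day 7 and 196, 215 and 187 CPM on day 0, log2FC -5.34 ± 0.63 (A and B -7.06 ± 0.39). The scaffold Pdzk1 had 4.08, 3.19 and 3.22 CPM on day 7 and 2145, 2469 and 1968 CPM on day 0, log2FC -9.29 ± 0.48 (A and B -9.23 ± 0.56).

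Counts and calls among mesenchymal factors and cytoskeletal genes depended on C. With all 3 libraries 8 of 15 were higher and 1 lower, median 1.25, beside 37.6% and 32.1% of all genes. With A and B alone 7 were higher and 5 lower, median 0.42, beside 37.1% and 32.5%. Vim had 50.2, 35.1 and 455 CPM on day 7 and 14.7, 17.96 and 16.1 CPM on day 0, log2FC 3.47 ± 0.7 (A and B 1.39 ± 0.25), with adjusted p of 0.000364 and 9.33e-05. Each day 7 library was above each day 0 library, and C was far above A and B. Acta2, which encodes smooth muscle actin, had 15.3, 16.2 and 89.6 CPM on day 7 and 31.8, 33.5 and 45.1 CPM on day 0, so that A and B lay below all of day 0 and C above: 0.13 and not called with 3 libraries, -1.23 and called lower with A and B. Tagln was called with 3 libraries (1.66) and not with A and B (0.22), and also not in a fit of the libraries of both days alone (1.59). Zeb1 and Zeb2, repressors of E-cadherin, were not called with 3 libraries (-0.54 and -0.85) and were lower with A and B (-2.33 and -2.16). Tpm1 and S100a6 were called with and without C: Tpm1 rose by 4.47 ± 0.19 (A and B 4.24 ± 0.14) and S100a6 by 7.29 ± 0.24 (A and B 7.11 ± 0.2), the second to a mean of 2970 TPM on day 7, against 9.803 TPM on day 0.

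**Figure D3:**
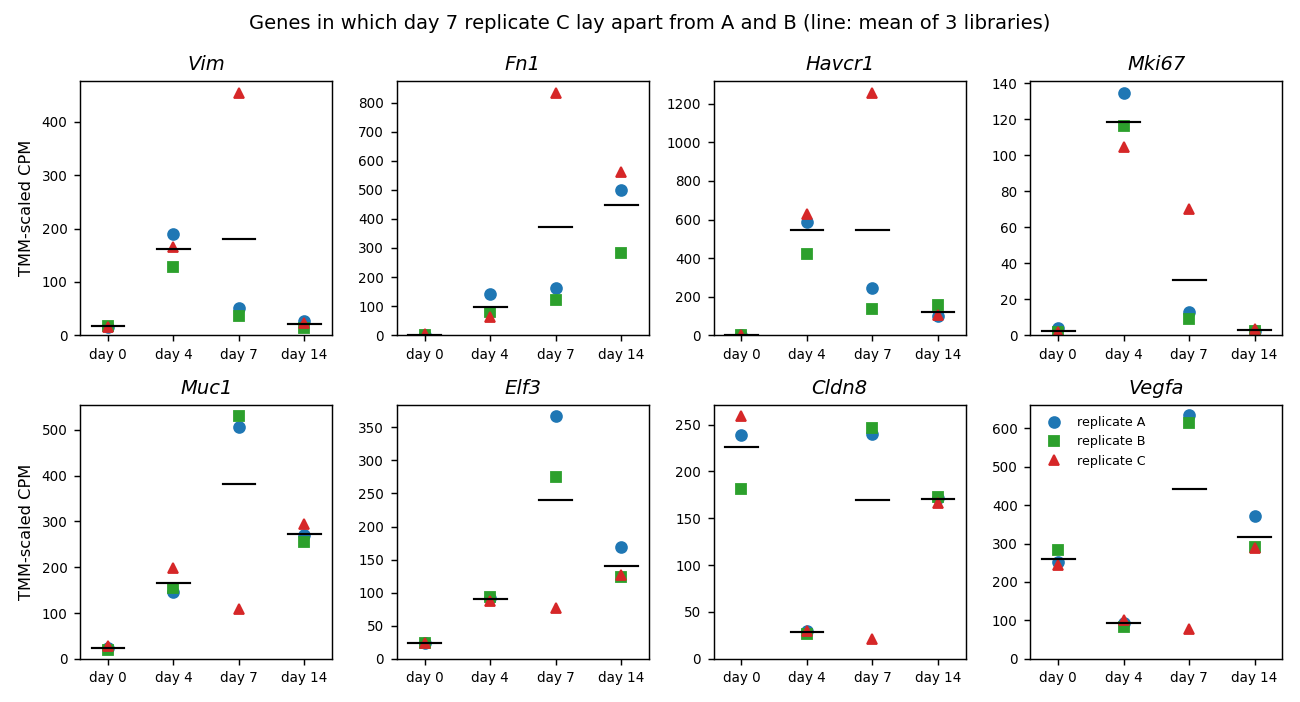
TMM-scaled CPM (y axes, linear) by day of culture (x axes) for 8 genes in which day 7 replicate C (triangles) lay apart from A and B, with a line at the mean of 3 libraries. In Vim, Fn1, Havcr1 and Mki67 the triangle of day 7 is above the other day 7 symbols, and in Muc1, Elf3, Cldn8 and Vegfa it is below them.

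More collagen chains rose than fell. Of 24 tested collagen chains 14 were higher and 5 lower, median 1.86 (14 and 8, 1.45). Over all genes the shares were 37.6% higher and 32.1% lower (37.1% and 32.5%). With library sizes alone 14 chains were higher and 3 lower, beside 10022 and 4223 of 18754 genes. On the TPM scale 12 were higher and 2 lower, beside 10337 and 3147 of 17415 genes. Col18a1, a basement membrane collagen that carries heparan sulfate, had 961, 939.8 and 638 CPM on day 7 and 241, 220.3 and 285 CPM on day 0, log2FC 1.77 ± 0.14 (A and B 1.93 ± 0.11). Of the chains of fibrillar interstitial collagen I, Col1a1 had 47.5, 41.3 and 22.1 CPM on day 7 and 0.426, 0.468 and 1.796 CPM on day 0, log2FC 5.42 ± 0.58 (A and B 5.7 ± 0.51). Col1a2 had 42.1, 42.98 and 43.5 CPM on day 7 and 7.38, 9.68 and 6.52 CPM on day 0, log2FC 2.44 ± 0.3 (A and B 2.43 ± 0.3). Both were also higher on day 7 than on day 4, at 3.68 ± 0.5 (A and B 3.94 ± 0.43) and 1.64 ± 0.29 (A and B 1.63 ± 0.29). They belong to the fibroblast marker list too, whose sums are given above.

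The collagen IV chains, which assemble as 3 distinct networks, did not move as one. The ubiquitous pair was not called with all 3 libraries: Col4a1 had 162, 136 and 345 CPM on day 7 and 225, 193 and 213 CPM on day 0, log2FC 0.03 ± 0.25 (A and B -0.5 ± 0.14), and Col4a2 68.2, 57.4 and 138 CPM on day 7 and 117, 98.3 and 107 CPM on day 0, log2FC -0.29 ± 0.24 (A and B -0.77 ± 0.14). A and B lay below day 0 in both genes and C above it, and both were called lower with A and B alone; on the TPM scale Col4a1 was called higher (0.60), with 38.6, 37.6 and 93.3 TPM on day 7 and 33.8, 32.9 and 33.8 TPM on day 0. Col4a3 and Col4a4, of the mature glomerular and distal network, were called lower, at -0.76 ± 0.2 (A and B -0.76 ± 0.23) and -0.83 ± 0.16 (A and B -0.62 ± 0.11), and both calls were lost with library sizes alone (-0.26 and -0.33) and on the TPM scale (-0.03 and -0.11). Col4a6, of the network of ducts and capsule, had 14.8, 12.7 and 6.19 CPM on day 7 and 2.08, 1.73 and 2.001 CPM on day 0, log2FC 2.54 ± 0.34 (A and B 2.83 ± 0.26). Its partner Col4a5 had 158, 145 and 70.1 CPM on day 7 and 87.95, 80.7 and 70.3 CPM on day 0, log2FC 0.64 ± 0.22 (A and B 0.93 ± 0.13), where C was no higher than day 0 and the call was lost in a fit of the libraries of both days alone (0.55) and without day 0 C (0.56), day 7 A (0.43) or day 7 B (0.52).

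Several laminin subunits rose, in the alpha, beta and gamma positions of the heterotrimer. Of 20 tested laminin and basement membrane genes 13 were higher and 4 lower (13 and 5), beside 37.6% and 32.1% of all genes. The median was 1.5 (1.46). The chains alpha3 and beta3 belong to a laminin of spreading epithelium. Lamb3 had 162, 159 and 239.8 CPM on day 7 and 0.804, 0.972 and 1.23 CPM on day 0, log2FC 7.54 ± 0.23 (A and B 7.33 ± 0.18). Lama3 rose by 1.53 ± 0.33 (A and B 0.84 ± 0.2). C was the highest of day 7 in both. The chains of mature tubule basement membrane, alpha5, beta1, beta2 and gamma1, rose as well. Lama5 had 226, 217 and 131 CPM on day 7 and 29.3, 32.6 and 26.1 CPM on day 0, log2FC 2.7 ± 0.19 (A and B 2.91 ± 0.14). Lamb1 had 393, 359.7 and 342 CPM on day 7 and 114, 121 and 119.5 CPM on day 0, log2FC 1.63 ± 0.09 (A and B 1.67 ± 0.09), and Lamb2 and Lamc1 rose by 1.47 and 0.97 (1.7 and 1.04). Against day 4, Lama5, Lamb1 and Lamb2 were higher on day 7 by 0.47, 0.69 and 0.96 (0.68, 0.73 and 1.19). Lamc1 was lower than on day 4, with a log2 fold change of -0.42 (-0.35).

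Agrin and perlecan, the heparan sulfate proteoglycans of the basement membrane, rose. Agrin, Agrn, had 616, 568 and 531 CPM on day 7 and 58.05, 58.1 and 54.4 CPM on day 0, log2FC 3.33 ± 0.09 (A and B 3.38 ± 0.09), and perlecan, Hspg2, rose by 3.23 ± 0.32 (A and B 3.45 ± 0.29). Of the nidogens that join laminin to collagen IV, Nid1 rose, log2FC 3.86 ± 0.47 (A and B 2.76 ± 0.18), with C well above A and B in the same direction, and Nid2 fell by 2.67 (-3.36). Npnt, the ligand of integrin alpha8 in kidney development, had 647, 602 and 213 CPM on day 7 and 288, 207 and 290.3 CPM on day 0, with C inside the day 0 range, log2FC 0.9 ± 0.28 (A and B 1.25 ± 0.14), and the call was lost in a fit of the libraries of both days alone (0.80) and without day 7 A (0.64). Egfl6 fell by 6.43 (-5.9).

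**Figure D4:**
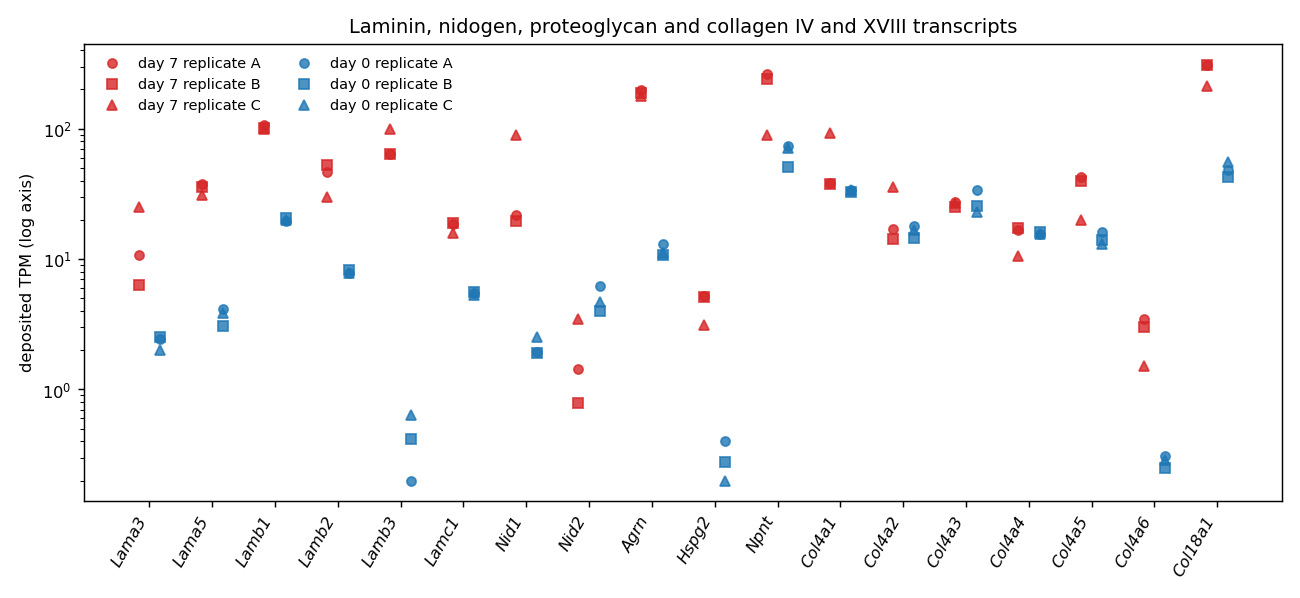
Deposited TPM (y axis, log scale) of 18 basement membrane transcripts (x axis) in each day 7 library (red) and each day 0 library (blue). The red symbols are above the blue ones for the laminin subunits, Nid1, Agrn, Hspg2, Npnt, Col4a1, Col4a5, Col4a6 and Col18a1, lie around them for Col4a2 to Col4a4, and are below them for Nid2.

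The list of fibronectin, thrombospondins and matricellular proteins had 15 of 25 members higher and 7 lower, median 2.05 (14 and 7, 1.53). Of all genes 37.6% were higher and 32.1% lower. Fn1, fibronectin, had 162, 119 and 833 CPM on day 7 and 1.47, 1.58 and 2.26 CPM on day 0, log2FC 7.72 ± 0.74 (A and B 6.33 ± 0.38). No day 7 library came near day 0, and C was far above A and B. The cytokine and matrix protein osteopontin, Spp1, had 12631, 8892 and 16253 CPM on day 7 and 4573, 5359 and 5677 CPM on day 0, log2FC 1.27 ± 0.21 (A and B 1.05 ± 0.19), and was the most abundant listed transcript per length, with 16979 TPM on day 7 and 4235 TPM on day 0. Ccn1 and Ccn2, targets of the YAP and TEAD pathway in many cells, rose by 2.47 ± 0.25 (A and B 2.19 ± 0.23) and 4.15 ± 0.41 (A and B 3.41 ± 0.26). Fbln2 had 486, 266 and 841 CPM on day 7 and 4.73, 6.77 and 7.03 CPM on day 0, log2FC 6.42 ± 0.42 (A and B 5.93 ± 0.32), and tenascin C, Tnc, rose by 6.85 ± 0.66 (A and B 5.71 ± 0.36). Sparc rose by 1.41 ± 0.35 (A and B 0.59 ± 0.17), a call lost in a fit of the libraries of both days alone (1.34). Its relative Sparcl1 fell by 4.20 (-5.64) and Tgfbi by 3.39 (-3.2).

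Of 17 tested proteoglycan and hyaluronan genes 8 were higher and 5 lower, with a median of 1.58 that came down to 0.06 without C at the same counts (8 and 5). Over all genes the shares were 37.6% higher and 32.1% lower (37.1% and 32.5%). The list summed to 969 to 1143 CPM on day 7 and 1067 to 1092 CPM on day 0. Sdc1, the syndecan of epithelia, had 185, 209 and 181 CPM on day 7 and 13.6, 13.9 and 15.8 CPM on day 0, log2FC 3.73 ± 0.15 (A and B 3.77 ± 0.15). Glypicans divided: Gpc1 rose by 1.67 ± 0.17 (A and B 1.7 ± 0.18). Gpc4 had 34.9, 30.7 and 42.97 CPM on day 7 and 313, 376 and 318 CPM on day 0, log2FC -3.21 ± 0.17 (A and B -3.35 ± 0.18). Has2, a hyaluronan synthase, had 0.691, 0.779 and 12.2 CPM on day 7 and 0 counts on day 0, at least 95.7-fold higher when day 0 is set at 3 counts in all (at least 16.7-fold with A and B alone).

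Matrix proteases and their inhibitors had 18 of 27 higher and 6 lower (16 and 7), beside 37.6% and 32.1% of all genes. Their median was 2.81 (2.35). Plaur, the receptor of urokinase, had 169, 192 and 141 CPM on day 7 and 2.37, 2.92 and 2.62 CPM on day 0, log2FC 5.98 ± 0.14 (A and B 6.09 ± 0.12). Mmp14, the membrane collagenase, had 287, 214 and 164 CPM on day 7 and 10.6, 8.099 and 8.52 CPM on day 0, log2FC 4.61 ± 0.23 (A and B 4.79 ± 0.2), and Adamts1, a proteoglycanase, 598, 658 and 399.8 CPM on day 7 and 29.7, 35.8 and 26.1 CPM on day 0, log2FC 4.18 ± 0.18 (A and B 4.36 ± 0.13). All 3 day 7 libraries were far above day 0 in these genes. Mmp10 was at 0 counts on day 0 and at least 121-fold higher on day 7 (96.4-fold). Mmp9 had 0.871, 0.496 and 33.5 CPM on day 7 and 0, 0.036 and 0.103 CPM on day 0, so its level on day 7 rests on C. The ratio of day 7 to day 0 was 242 (exact 95% interval 82.6 to 1.18e+03) with C and 15.9 with A and B alone, and the call was lost on the TPM scale with no filter (log2FC 1.71). Plat, tissue plasminogen activator, was called with 3 libraries and not with A and B alone, log2FC 1.16 ± 0.37 (A and B 0.44 ± 0.26), nor in a fit of the libraries of both days alone (1.09) or without day 0 C (0.95). The tissue inhibitors of metalloproteases did not share a direction: Timp2 rose by 2.81 ± 0.28 (A and B 2.99 ± 0.27). Timp1 had 11.9, 10.4 and 72.5 CPM on day 7 and 0, 0.036 and 0.103 CPM on day 0, a ratio of 679 (exact 95% interval 232 to 3.29e+03, 256 with A and B alone), adjusted p = 2.43e-07 by edgeR. Timp3 had 1040, 1285 and 219 CPM on day 7 and 3400, 4233 and 3901 CPM on day 0, log2FC -2.18 ± 0.41 (A and B -1.73 ± 0.18). C was the highest in Timp1 and the lowest in Timp3. Tissue kallikrein, Klk1, a product of the connecting tubule, had 0.3304, 0.106 and 0.113 CPM on day 7 and 2261, 2145 and 2705 CPM on day 0, log2FC -13.56 ± 0.52 (A and B -13.32 ± 0.6).

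Enzymes that process and crosslink collagen had 10 of 16 higher and 3 lower (10 and 4), beside 37.6% and 32.1% of all genes. The median was 1.4 (1.6). The collagen chaperone Serpinh1 had 351, 339 and 514 CPM on day 7 and 122, 105 and 110.3 CPM on day 0, log2FC 1.83 ± 0.13 (A and B 1.62 ± 0.08). The prolyl hydroxylase subunits P4ha1 and P4ha2 rose by 1.41 ± 0.23 (A and B 1.66 ± 0.19) and 1.39 ± 0.23 (A and B 1.67 ± 0.15), and lysyl oxidases Lox and Loxl2 by 5.07 ± 0.57 (A and B 4.12 ± 0.37) and 4.09 ± 0.21 (A and B 4.2 ± 0.21). The procollagen C-proteinase Bmp1 rose by 3.76 ± 0.21 (A and B 3.44 ± 0.14). Tgm2, a transglutaminase, fell, with 56.99, 30.1 and 149 CPM on day 7 and 424, 444 and 466 CPM on day 0, log2FC -2.5 ± 0.42 (A and B -3.35 ± 0.32). Its 3 day 7 values were all below day 0 and spread widely among themselves.

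Integrins, the matrix receptors, had 8 of 16 higher and 5 lower, median 0.64 (9 and 5, 0.69), beside 37.6% and 32.1% of all genes. Itgb1 had 1367, 1224 and 2968 CPM on day 7 and 334, 335 and 313 CPM on day 0, log2FC 2.5 ± 0.24 (A and B 1.98 ± 0.09). The alpha3 subunit of the laminin receptor, Itga3, had 744, 678 and 1075 CPM on day 7 and 34.7, 31.5 and 33.8 CPM on day 0, log2FC 4.64 ± 0.18 (A and B 4.42 ± 0.13). The hemidesmosome subunit Itgb4 had 106, 90.9 and 141 CPM on day 7 and 4.35, 4.104 and 6.82 CPM on day 0, log2FC 4.48 ± 0.24 (A and B 4.29 ± 0.22). No values overlapped between the days in these 3 genes. The collagen receptor subunit Itga2 rose by 5.9 ± 0.62 (A and B 4.84 ± 0.35). Itgb8 fell, with 14.6, 13.03 and 7.01 CPM on day 7 and 222, 244 and 198 CPM on day 0, log2FC -4.26 ± 0.35 (A and B -4 ± 0.33).

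Secreted proteins linked with kidney injury had 13 of 21 higher and 6 lower (13 and 6), beside 37.6% and 32.1% of all genes. Their median was 1.97 (1.84). Clusterin, Clu, had 2232, 2196 and 3262 CPM on day 7 and 557, 504 and 634 CPM on day 0, log2FC 2.18 ± 0.2 (A and B 1.97 ± 0.18), and 2585 TPM on day 7 against 343 TPM on day 0. Gdf15, a stress-induced member of the TGF-beta family, had 542, 603 and 239.8 CPM on day 7 and 6.95, 7.45 and 7.64 CPM on day 0, log2FC 5.97 ± 0.31 (A and B 6.28 ± 0.19). The galectins Lgals3 and Lgals1 rose by 2.79 ± 0.17 (A and B 2.93 ± 0.15) and 2.58 ± 0.47 (A and B 1.37 ± 0.17), with C highest in Lgals1. The cytokine Lif had 53.8, 43.5 and 85.9 CPM on day 7 and 0.426, 0.288 and 0.513 CPM on day 0, log2FC 7.25 ± 0.27 (A and B 6.93 ± 0.17), and complement C3 rose by 1.7 ± 0.28 (A and B 1.84 ± 0.28). Complement factor B, Cfb, fell, with 4.42, 4.96 and 2.51 CPM on day 7 and 715, 786 and 718 CPM on day 0, log2FC -7.54 ± 0.35 (A and B -7.3 ± 0.36). Igfbp7 was called lower, log2FC -0.96 ± 0.16 (A and B -0.85 ± 0.17), a call lost on the TPM scale (-0.25), with a mean of 2093 TPM on day 7 against 2476 TPM on day 0.

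Of 19 tested Wnt ligands and secreted Wnt modulators 10 were higher and 8 lower (10 and 8), beside 37.6% and 32.1% of all genes. The median was 1 (0.58). Beside Wnt7a, its close relative Wnt7b had 527, 480.2 and 380 CPM on day 7 and 11.2, 4.07 and 9.59 CPM on day 0, log2FC 5.82 ± 0.3 (A and B 5.95 ± 0.29), and a mean of 242 TPM on day 7 against 166 TPM for Wnt7a. Wnt9a had 39.5, 28.5 and 35.9 CPM on day 7 and 1.42, 1.22 and 1.08 CPM on day 0, log2FC 4.8 ± 0.21 (A and B 4.77 ± 0.22). Wnt10a rose by 5.75 ± 0.31 (A and B 5.93 ± 0.27). The secreted antagonist Sfrp1 had 4.81, 5.66 and 1.8 CPM on day 7 and 268, 229.6 and 305 CPM on day 0, log2FC -6.02 ± 0.37 (A and B -5.68 ± 0.29), and Notum, the enzyme that strips the lipid from Wnts, fell by 8.25 (-8.07).

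Ligands of the EGF, FGF, PDGF and VEGF families had 16 of 24 higher and 6 lower, median 1.86 (16 and 6, 1.74, or 1.42 at the bounds). Of all genes 37.6% were higher and 32.1% lower. Egf itself, made by the thick limb and distal tubule, had 0.3605, 0.531 and 0.562 CPM on day 7 and 2877, 2533 and 1807 CPM on day 0, log2FC -12.28 ± 0.68 (A and B -12.4 ± 0.8). Several other ligands of its receptor rose. Hbegf had 102, 82.6 and 159.9 CPM on day 7 and 13.1, 17.6 and 19.9 CPM on day 0, log2FC 2.77 ± 0.23 (A and B 2.45 ± 0.18). Tgfa had 58.1, 50.4 and 55.9 CPM on day 7 and 4.59, 3.56 and 5.28 CPM on day 0, log2FC 3.62 ± 0.14 (A and B 3.61 ± 0.15). Btc rose by 2.41 ± 0.39 (A and B 2.85 ± 0.16), and Areg, with 0 counts on day 0, was at least 105-fold higher (74.1-fold). Pdgfb rose by 2.78 ± 0.15 (A and B 2.7 ± 0.15) and the growth factor Hdgf by 0.43 ± 0.07 (A and B 0.45 ± 0.07). Vegfa had 634, 615 and 76.9 CPM on day 7 and 251, 284 and 244 CPM on day 0, so A and B lay above day 0 and C below it: 0.77 and not called with 3 libraries, 1.26 and called with A and B alone, and 1.24 and called with library sizes alone.

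The TGF-beta, BMP and activin list had 17 of 25 higher and 3 lower (19 and 4), beside 37.6% and 32.1% of all genes. Its median was 1.96 (2.05). Tgfb2 had 79.4, 80.1 and 15.1 CPM on day 7 and 2.74, 2.27 and 2.72 CPM on day 0, log2FC 4.5 ± 0.47 (A and B 4.96 ± 0.19), lowest in C, and Tgfb1 had 21.3, 19.3 and 35.1 CPM on day 7 and 3.26, 2.88 and 3.95 CPM on day 0, log2FC 2.91 ± 0.24 (A and B 2.6 ± 0.19), highest in C. The activin subunits Inhba and Inhbb rose by 5.79 ± 0.71 (A and B 4.33 ± 0.28) and 5.89 ± 0.25 (A and B 5.93 ± 0.26), and their antagonist follistatin, Fst, by 3.08 ± 0.43 (A and B 2.55 ± 0.37). Bmp6 had 16.6, 10.4 and 35.2 CPM on day 7 and 124, 126 and 118 CPM on day 0, log2FC -2.57 ± 0.36 (A and B -3.18 ± 0.3). Bmp7, a BMP of kidney tubules, had 146, 121 and 46.04 CPM on day 7 and 75.8, 76.8 and 85.7 CPM on day 0 and was called with A and B alone and not with 3 libraries, log2FC 0.39 ± 0.28 (A and B 0.75 ± 0.16). It was called higher with library sizes alone (0.88) and on the TPM scale (0.92).

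Chemokines, interleukins and colony-stimulating factors had 23 of 30 higher and 4 lower, median 3.14 (22 and 4, 2.66, or 2.33 at the bounds). Of all genes 37.6% were higher and 32.1% lower. Cxcl16 had 234, 220.3 and 159.7 CPM on day 7 and 62.4, 64.9 and 62.95 CPM on day 0, log2FC 1.69 ± 0.12 (A and B 1.84 ± 0.09), and Csf1, the growth factor of macrophages, had 128, 134 and 169.5 CPM on day 7 and 5.91, 6.33 and 6.72 CPM on day 0, log2FC 4.51 ± 0.15 (A and B 4.37 ± 0.13). Ccl20 had 28.9, 38.7 and 56.6 CPM on day 7 and 1 count on day 0, a ratio of 2.77e+03 (exact 95% interval 496 to 1.09e+05, 2.29e+03 with A and B alone), and was lower on day 7 than on day 4, at -3.61 ± 0.39 (A and B -3.9 ± 0.42), adjusted p = 1.48e-05. Csf3 was at least 139-fold higher against 0 counts (63-fold), and the interleukin 1 receptor antagonist Il1rn rose by 8.73 ± 0.56 (A and B 8.31 ± 0.45). Cxcl1 and Cxcl10 rose by 3.24 ± 0.57 (A and B 2.36 ± 0.44) and 2.3 ± 0.5 (A and B 2.78 ± 0.27). Ccl2 had 0.541, 0.744 and 7.91 CPM on day 7 and 0.142, 0.036 and 0.564 CPM on day 0 and was called with 3 libraries and not with A and B alone, log2FC 3.72 ± 1.01 (A and B 1.49 ± 0.73), nor in a fit of the libraries of both days alone (3.63). Cxcl12 fell by 4.22 (-5.27), and Il1b was at 0 counts on day 7 against 0.662, 1.08 and 1.95 CPM on day 0, at least 35.2-fold lower (24.6-fold).

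IGF and its binding proteins mostly fell, with 6 of 9 lower and 1 higher (8 and 1), beside 32.1% and 37.6% of all genes. The median was -2.08 (-2.37). Igfbp4 had 11.1, 8.001 and 9.52 CPM on day 7 and 1549, 1981 and 1451 CPM on day 0, log2FC -7.44 ± 0.44 (A and B -7.44 ± 0.52). Igfbp5 had 24.4, 23.1 and 60.5 CPM on day 7 and 254, 284 and 244 CPM on day 0, log2FC -2.86 ± 0.4 (A and B -3.46 ± 0.37). Igfbp2 was the 1 higher member, with 72.4, 71.5 and 7.46 CPM on day 7 and 0.0473, 0.144 and 0.616 CPM on day 0, log2FC 7.63 ± 0.85 (A and B 8.15 ± 0.33), and C was far below A and B. Serpins and other protease inhibitors, not all of them secreted, had 12 of 21 higher and 6 lower, median 1.97 (11 and 7, 1.47). The shares of all genes were 37.6% higher and 32.1% lower. Wfdc2 had 563, 544 and 350.4 CPM on day 7 and 119.5, 104 and 149.9 CPM on day 0, log2FC 1.97 ± 0.19 (A and B 2.16 ± 0.16), and the granzyme inhibitor Serpinb9 rose by 2.87 ± 0.37 (A and B 3.25 ± 0.23). Spink1, a trypsin inhibitor, had 0.721, 0.4602 and 0.375 CPM on day 7 and 439, 543 and 452 CPM on day 0, log2FC -9.81 ± 0.28 (A and B -9.63 ± 0.31).

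Factors of nephron development were evenly split, with shares near those of all genes (37.6% higher and 32.1% lower). Of 22 tested 8 were higher and 8 lower, median -0.16 (8 and 9, -0.18). The sign of the median turned with library sizes alone (0.34) and on the TPM scale (0.49). Sox4 and Sox9 are known from injured tubules. Sox4 had 315, 284 and 298 CPM on day 7 and 24.4, 22.7 and 32.4 CPM on day 0, log2FC 3.5 ± 0.13 (A and B 3.5 ± 0.13). Sox9 had 117, 93.9 and 147 CPM on day 7 and 2.74, 2.45 and 3.69 CPM on day 0, log2FC 5.34 ± 0.19 (A and B 5.17 ± 0.16). Pax8 and Pax2, factors of all tubule segments, rose by 1.32 ± 0.21 (A and B 1.62 ± 0.1) and 1.78 ± 0.31 (A and B 2.13 ± 0.19), and Tfap2a by 3.6 ± 0.39 (A and B 4 ± 0.22). Hoxd8 and Lhx1 were called lower, at -0.94 ± 0.27 (A and B -0.58 ± 0.11) and -0.88 ± 0.25 (A and B -0.55 ± 0.12), and both calls were lost with library sizes alone (-0.46 and -0.39) and on the TPM scale (-0.38 and -0.21), and that of Hoxd8 also in a fit of the libraries of both days alone (-1.04).

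Injury and failed-repair genes had the highest median in the plot of list medians, 4.16 (4.37). Of 19 tested 15 were higher and 1 lower (16 and 1), beside 37.6% and 32.1% of all genes. Havcr1, which encodes KIM-1, had 246, 136 and 1256 CPM on day 7 and 0.0473, 0.18 and 0.257 CPM on day 0, log2FC 11.69 ± 1.04 (A and B 10.18 ± 0.61), adjusted p = 5.36e-08, with C well above A and B. Akap12 had 661, 479 and 1032 CPM on day 7 and 6.67, 4.32 and 6.88 CPM on day 0, log2FC 6.94 ± 0.35 (A and B 6.6 ± 0.29). The cell cycle inhibitors Cdkn1a and Cdkn2b rose by 5.5 ± 0.26 (A and B 5.67 ± 0.23) and 6.6 ± 0.28 (A and B 6.7 ± 0.25) and were higher on day 7 than on day 4, at 0.84 ± 0.21 (A and B 1.01 ± 0.19) and 0.85 ± 0.2 (A and B 0.94 ± 0.17). Vcam1, a marker of failed repair in mouse kidney, was not called: 5.497, 3.47 and 17.1 CPM on day 7 and 5.01, 5.54 and 4.51 CPM on day 0, log2FC 0.79 ± 0.44 (A and B -0.16 ± 0.3), but it was called higher with library sizes alone (1.31), on the TPM scale (0.89) and without day 7 B (1.16). All 16 replication and mitosis genes were higher than on day 0 (16 with A and B alone), with sums of 523, 476 and 1934 CPM on day 7 and 88.1 to 109 CPM on day 0, and Mki67 had 12.9, 9.13 and 70.3 CPM on day 7 and 3.74, 1.55 and 1.796 CPM on day 0, log2FC 3.71 ± 0.67 (A and B 2.25 ± 0.39).

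The 8 largest rises of called genes with a symbol were Wnt7a, Serpinb9b, Syt8, Prl2c3, Fosl1, Hk2, Prl2c2 and Havcr1. Fosl1, an AP-1 subunit, had 12.3, 12.9 and 38.1 CPM on day 7 and 0 counts on day 0, at least 463-fold higher (286-fold), and Syt8 had 33.3, 31.1 and 14.02 CPM on day 7 and 0 counts on day 0, at least 611-fold (737-fold). Hk2, the hexokinase of glycolytic cells, had 155, 148 and 92.7 CPM on day 7 and 2 counts on day 0, a ratio of 4.59e+03 (exact 95% interval 1.27e+03 to 3.79e+04, 5.2e+03 with A and B alone). Serpinb9b, Prl2c2 and Prl2c3 have near-identical relatives, among which estimated counts may be split, so they are uncertain. Serpinb9b had 140, 176 and 70 CPM on day 7, lowest in C, and 1 count on day 0. Its ratio with all 3 libraries was 8.91e+03 (exact 95% interval 1.6e+03 to 3.52e+05). Prl2c3 and Prl2c2, at 0 counts on day 0, were at least 562-fold and 382-fold higher (253-fold and 187-fold).

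The 8 largest falls were Akr1c21, G6pc, Slc34a1, Cyp4a14, Ugt3a2, Fam151a, F13b and Hpd. G6pc, the last enzyme of gluconeogenesis, had 0 counts on day 7 against 1130, 1365 and 903 CPM on day 0, at least 34123-fold lower (23805-fold). Akr1c21, an aldo-keto reductase, had 0 counts on day 7 against 1582, 1758 and 1650 CPM on day 0, at least 49178-fold lower (34308-fold). Slc34a1, the phosphate transporter of the brush border, had 0.0901, 0.0708 and 0 CPM on day 7 and 13732, 14663 and 12842 CPM on day 0, log2FC -17.78 ± 0.63 (A and B -17.29 ± 0.7). A, B and C were all at or near 0 for these genes. Cyp4a14, Fam151a, F13b and Hpd were at 0 counts on day 7 and at least 20780-, 15171-, 9473- and 7429-fold lower (14497-, 10584-, 6609- and 5183-fold). Ugt3a2 had 1 count on day 7 against 1929, 2104 and 1735 CPM on day 0, a day 0 to day 7 ratio of 171539 (exact 95% interval 30787 to 6775473). The endocytic receptor megalin, Lrp2, also fell, with 5.44, 8.89 and 10.5 CPM on day 7 and 516, 603 and 366 CPM on day 0, log2FC -5.91 ± 0.42 (A and B -6.12 ± 0.48).

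Day 7 was also set against its neighbours in time, comparisons that share the day 7 libraries with the one above. Against day 4, 4122 genes (22.0%) were higher and 2985 (15.9%) lower, and with A and B alone 5373 (28.6%) and 4154 (22.1%). TGF-beta family members were higher on day 7 in 14 of 25 and lower in 0 (17 and 3), collagens in 12 of 24 and lower in 0 (12 and 4), and nephron development factors in 11 of 22 and lower in 0 (14 and 0). Chemokines and interleukins had 7 of 30 higher and 9 lower (7 and 16), and all 16 replication genes were lower (16). Keratins had 1 of 12 higher and 4 lower (2 and 6). Igfbp2 and Tgfb2 were among the genes that were higher on day 7 than on day 4, by 5.17 ± 0.66 (A and B 5.68 ± 0.25) and 3.51 ± 0.44 (A and B 3.96 ± 0.17).

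Day 14 against day 7 gave 950 genes (5.07%) higher and 1398 (7.45%) lower, and against A and B alone 1130 (6.03%) and 1777 (9.48%). All 16 replication genes were lower on day 14, as were 8 of 12 endothelial markers (16 and 8). Beside these shares, laminins and basement membrane genes had 4 of 20 higher and 0 lower (6 and 0). Claudins and tight junction genes had 0 of 24 higher and 2 lower (0 and 6), keratins 0 and 0 of 12 (1 and 1), and epithelial factors 1 and 1 of 21 (1 and 8). Thbs1 averaged 4532 ± 398 CPM on day 14 and 3269 ± 65.2 CPM on day 7 (SD, n = 3 each), a log2 fold change of 0.47 ± 0.16 (A and B 0.46 ± 0.17) with an adjusted p of 0.065 (0.0916).

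The deposited TPM were used as a check. Of 434 called list genes (281 higher and 153 lower), 403 passed the TPM filter, 400 of these had the same sign in the limma fit on log2(TPM + 1), and 375 had the same sign and an adjusted p under 0.05. The remaining 3 had the opposite sign. Agreement was lower over all genes: 11892 called genes passed the TPM filter, and 10630 of these had the same sign.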

How the data were processed

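PolyA RNA-seq gave 18 libraries over 6 days, of which 6 enter the comparison of day 7 with day 0 and 6 more (days 4 and 14) its neighbouring comparisons. The labels gave the day and replicate. The deposited estimated counts per gene, whole numbers, and the deposited TPM (transcript abundance relative to gene length and library total) were made by the authors. The submitters' processing notes name RSEM 1.3.3, STAR 2.7.8a, cutadapt 2.3 and FastQC 0.11.8, and the GRCm38 genome. Annotation release and strandedness: not given in the sources used here. Overlapping and antisense genes may therefore share reads. TPM hold no depth. Positions are from GENCODE vM21.

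Of 55426 entries, 5 reporter transgenes with 0 counts were left out, and edgeR's filterByExpr kept 18754 genes. One edgeR 4.0.16 quasi-likelihood model (R 4.3.3) of the day means over all 18 libraries was fitted with TMM scaling, and again over 17 without day 7 replicate C. The estimated counts were tested as deposited. Each standard error is the absolute log2 fold change divided by the square root of F. p-values were adjusted by the Benjamini-Hochberg method over all tested genes. Folds against 0 counts use a floor of 3 counts over the libraries of that day, and ratios against 1 to 3 counts have exact 95% intervals, for counting error only. The TPM check used limma 3.58.1 on log2(TPM + 1) for genes whose TPM averaged 0.5 or more, and DESeq2 1.42.0 was an alternative. The code was checked on simulated counts. No libraries of days 0, 4, 7 or 14 were duplicates within a day (lowest chi-square per degree of freedom 6.81).

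Libraries with the same letter shared little of their deviation from the day means, with r of 0.039, -0.012 and -0.018 between days 7 and 0. Between days 14 and 7 r was near 0 for A, 0.067 for B and 0.052 for C. The letters were not used as pairs. Because C lay apart from A and B on day 7, these values cannot exclude a shared preparation. The alternatives tried were other scalings, no filter, the replicate block, the libraries of both days alone, DESeq2, limma on TPM and leaving out each library of days 0, 4, 7 and 14.

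The members, 30 gene lists and the naming rule were chosen with earlier results of these data known. The rule names the markers, a set of check genes, the 8 largest rises and falls that reach 10 CPM on the higher day with no overlap of the libraries, and from each list the 2 members called in the main direction and the 1 in the other with the highest TPM. Other genes named were chosen after their values were seen. Some list members are counted in their lists and are not reported here by name.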

Additional observations from a re-analysis of the deposited data

How the results depend on the processing

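The count of genes that differed between day 7 and day 0 (7060 higher and 6028 lower) stayed within 1.5 times under most settings. It moved with limma on log2(TPM + 1), where 3147 were lower, with log2(TPM + 0.1), where 3111 were lower, and with log2(TPM + 1) and no filter, where 10842 were higher. DESeq2's Wald test called 6573 higher and 6516 lower. Leaving out 1 library gave 6557 to 7526 higher and 5610 to 6088 lower. With the replicate block 7070 were higher and 6083 lower. Whether libraries of the same letter shared a preparation is not known from the labels. A fit of the libraries of both days alone called 5622 higher and 5784 lower (6487 and 6659 with day 7 A and B alone).

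Day 7 against day 4 gave 1849 higher and 1488 lower in a fit of the libraries of both days alone. The same fit without day 7 C gave 5300 higher and 5255 lower. Over all days, day 7 against day 4 gave 2873 to 5373 higher and 2152 to 4154 lower with 1 library left out, the highest without day 7 C. For day 14 against day 7, the count of higher genes was 1554 with library sizes alone, 610 with no filter, 93 with the libraries of both days alone, 1697 with log2(TPM + 1) and 1745 with that and no filter. Its count of lower genes was 80 with the libraries of both days alone, 621 with log2(TPM + 1), 664 with log2(TPM + 0.1) and 505 with no filter on TPM. The fit of the libraries of both days gave 1859 higher and 2637 lower without day 7 C. Leaving out 1 library gave 455 to 1130 higher and 711 to 1777 lower.

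For 165 of 185 named genes no alternative ended the call or turned the sign; 14 lost a call and 6 turned sign under at least 1. None of the 6 was called with all 3 libraries. Leaving out 1 library gave -1.23 to 0.52 for Acta2, -0.5 to 0.27 for Col4a1, -0.79 to 0.1 for Cldn8 and -0.16 to 1.16 for Vcam1, with the sign turned without day 7 C in each, and for Col4a1 also without day 0 B (-0.03). Col4a1 also turned with DESeq2's size factors and its Wald test (-0.06 each) and in a fit of the libraries of both days alone (-0.05). With library sizes alone Cldn8 (0.05), Col4a2 (0.23) and Zeb1 (0 after rounding) turned, and Col4a2 did on the TPM scale (0.31, 0.32 with log2(TPM + 0.1) and 0.31 with no filter). The causes were not tested.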
